A study of Mus musculus with 6 samples.

Results

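The HOX cluster genes were taken as every gene of the deposited mouse table whose symbol is Hox, a cluster letter from a to d and a number, and whose transcript types include protein coding. There were 37 such genes among the 32759 genes of the table, 11 in the HoxA cluster, 10 in HoxB, 7 in HoxC and 9 in HoxD. For 22 of them protein coding was the only transcript type listed, and 15 had further types. Hoxc12 and Hoxc13 were not analysed here. RNA was sequenced from white fat of mice that all ate a high-fat diet (HFD). The 3 THBru libraries came from mice dosed with 50 mg/kg/day of the small molecule THBru (tetrahydroberberrubine), and the 3 HFD libraries from mice without THBru. The labels give no fat depot, strain, sex, age or source animal, so p-values measure only the spread between these samples, which may be technical.

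Hox genes encode homeodomain transcription factors that give cells of the embryo their position along the body axis. Within each cluster the genes lie in the order in which they are used from head to tail: genes with low paralogue numbers act towards the head and those with the highest numbers in the lower trunk, the limb ends and the urogenital tract. Adult tissues keep much of this pattern, and fat depots from different body regions are known to differ in their Hox RNAs. Genes with the same number in different clusters, such as Hoxb8 and Hoxc8, are paralogues with related homeodomains.

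The clusters also carry miRNA genes, and those of HoxB and HoxD are shown because RNA from their loci appears in the results, with miR-196b of HoxA for its shared seed. RefSeq (GRCm38.p6) gives the mature forms below, with the seed, bases 2 to 8, in capitals.
mmu-miR-196a-5p: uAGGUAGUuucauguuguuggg
mmu-miR-196b-5p: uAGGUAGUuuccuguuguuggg
mmu-miR-10a-5p: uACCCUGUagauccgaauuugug
mmu-miR-10b-5p: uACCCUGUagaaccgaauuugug
The miR-196 forms share the seed AGGUAGU and the miR-10 forms share ACCCUGU. The copy of miR-196a shown lies at chr11:96265187-96265208 on the + strand, upstream of Hoxb9, and miR-196b lies in HoxA inside Hoxa9. The miR-10a form lies in HoxB and miR-10b in HoxD, inside the Hoxd3 and Hoxd4 genes. Cleavage of Hoxb8 mRNA by miR-196a is a textbook case of a near-perfect animal miRNA target, and the site was found in exon 2 of Hoxb8, in its UTR, at chr11:96284888-96284909 on the + strand (GRCm38, GENCODE M21). Of its 22 bases, 21 pair with miR-196a and 1, the capital, forms a G to U wobble.
Hoxb8 site: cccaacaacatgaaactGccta

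Promoter windows of 250 bases before the RefSeq start (GRCm38.p6) are given for 3 genes that stand for the patterns below: Hoxb8, higher in every THBru library, Hoxd13, counted in 1 THBru library alone, and Hoxc4, low in 2 of the 3 THBru libraries. Capitals mark the TATA box letters TATAAA and the Hox and PBX composite letters TGATNNAT, searched on both strands with overlapping matches shown as 1 run.
Hoxb8, chr11:96281655-96281904, + strand: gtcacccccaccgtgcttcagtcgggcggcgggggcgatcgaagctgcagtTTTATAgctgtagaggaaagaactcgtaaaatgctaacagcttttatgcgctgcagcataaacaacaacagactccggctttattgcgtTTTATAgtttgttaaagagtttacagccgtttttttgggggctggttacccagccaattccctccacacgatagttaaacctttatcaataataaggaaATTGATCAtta
Hoxd13, chr2:74667975-74668224, + strand: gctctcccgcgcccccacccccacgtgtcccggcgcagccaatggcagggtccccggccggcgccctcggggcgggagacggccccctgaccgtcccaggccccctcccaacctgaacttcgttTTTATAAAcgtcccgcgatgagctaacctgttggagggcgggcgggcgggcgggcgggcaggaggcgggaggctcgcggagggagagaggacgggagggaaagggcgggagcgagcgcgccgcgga
Hoxc4, chr15:103034145-103034394, + strand: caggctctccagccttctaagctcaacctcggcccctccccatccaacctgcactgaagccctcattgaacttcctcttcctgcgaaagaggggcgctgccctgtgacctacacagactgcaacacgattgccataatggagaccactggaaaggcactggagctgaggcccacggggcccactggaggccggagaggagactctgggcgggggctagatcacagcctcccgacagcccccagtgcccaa
The Hoxb8 window held TATAAA at 2 places and TGATNNAT at 1, the Hoxd13 window TATAAA at 2 places in 1 overlapping run, and the Hoxc4 window neither. The RefSeq start of Hoxc4 lies inside the longer Hoxc4 gene of the table. RefSeq windows matched 22 of the 37 genes, 24 windows in all. TATAAA occurred in 4 of these 24 (16.7%) and in 12.4% of 32851 promoters, and TGATNNAT in 4 of 24 (16.7%) and in 7.68%. The median number of CG pairs per window was 12.5 in the Hox windows and 6.0 in all promoters. These matches describe the letters only.

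Total counts, in units of 1e6, were 72.1, 68.3 and 67.2 in THBru 1 to 3 and 77, 69.3 and 74.0 in HFD 1 to 3. Each THBru library stood apart from the HFD libraries by markers of other organs. The 11 seminal vesicle markers summed to 43.2% of counts in THBru 1, and to 0.0811% and 0.101% in THBru 2 and THBru 3, against 0.0539 to 0.0643% in the HFD libraries. The 15 epididymis markers summed to 5.61% in THBru 3, and to 0.0144% and 0.00959% in THBru 1 and THBru 2, against 0.00626 to 0.00721% in HFD. The 12 kidney tubule markers summed to 4.55, 924.5 and 14.6 CPM (counts per 1e6 counts) in THBru 1 to 3 and 4.94 to 6.5 CPM in HFD, with 4, 0 and 2 of them at 0 in THBru 1 to 3 and 6, 6 and 4 in HFD 1 to 3. Epithelial markers (11 genes, Epcam and keratins among them) summed to 1258.5, 473.6 and 2030.5 CPM in THBru and 23.1, 106.0 and 7.74 CPM in HFD. The mature adipocyte list (14 genes, none at 0 in any library) took 0.708, 3.55 and 0.388% of counts in THBru 1 to 3 and 3.09, 4.27 and 4.85% in HFD 1 to 3, so the labelled tissue was present in all 6 but weak in THBru 1 and THBru 3. Progenitor and fibroblast markers (12 genes) summed to 952.3, 2433.5 and 1100.2 CPM in THBru and 5998.4, 3183.6 and 2248.1 CPM in HFD, macrophage markers (10) to 285.9 to 1421.3 CPM in THBru and 2460.6 to 5670.4 CPM in HFD, and smooth muscle markers (9) to 599.2 to 1975.6 CPM in THBru and 898.9 to 1211.8 CPM in HFD. The smooth muscle sums hide opposite changes: in the edgeR fit below, 7 genes were higher in THBru and 2 lower (median log2 fold change 1.9). Synpo2, a lower one, had 133.7, 175.0 and 42.2 CPM in THBru and 640.1, 736.9 and 521.0 CPM in HFD, much of the HFD sums. Myh11, a higher one, had 653.5, 109.6 and 290.9 CPM in THBru and 69.3, 63.5 and 42.8 CPM in HFD. In bulk RNA, fewer cells of a type and less RNA per cell cannot be told apart. The part of these other tissues in the Hox values was not tested. The TMM factor, which corrects for a few genes taking much of a library, was 0.632 in THBru 1, 1.19 and 1.12 in THBru 2 and THBru 3, and 1.02 to 1.08 in HFD, so CPM of the total count understates THBru 1 against the TMM-scaled values.

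The summed Hox RNA had a higher mean in THBru, and whether the groups overlapped depended on the scaling. Summed over the 37 genes it came to 262.6, 394.6 and 1011.3 CPM in THBru 1 to 3 and to 163.5, 194.4 and 267.0 CPM in HFD 1 to 3, where CPM without further mention is relative to the total count. The means were 556.2 ± 399.6 CPM in THBru and 208.3 ± 53.1 CPM in HFD (SD, n = 3 each). On this scale THBru 1 lay just below the highest HFD library, and THBru 3 was highest of all. In TMM-scaled CPM the sums were 415.4, 331.2 and 906.4 in THBru 1 to 3 and 151.3, 190.4 and 247.4 in HFD 1 to 3, with no overlap, and THBru 1 was over 1.5 times its value by total count. THBru 1 to 3 had a count above 0 for 32, 33 and 31 of the 37 genes, and HFD 1 to 3 for 30, 29 and 28. A count of 0 in a single library allows a level of up to 3 counts, or 0.039 to 0.0446 CPM. Such limits, and the intervals below, cover counting error only.

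**Figure D1:**
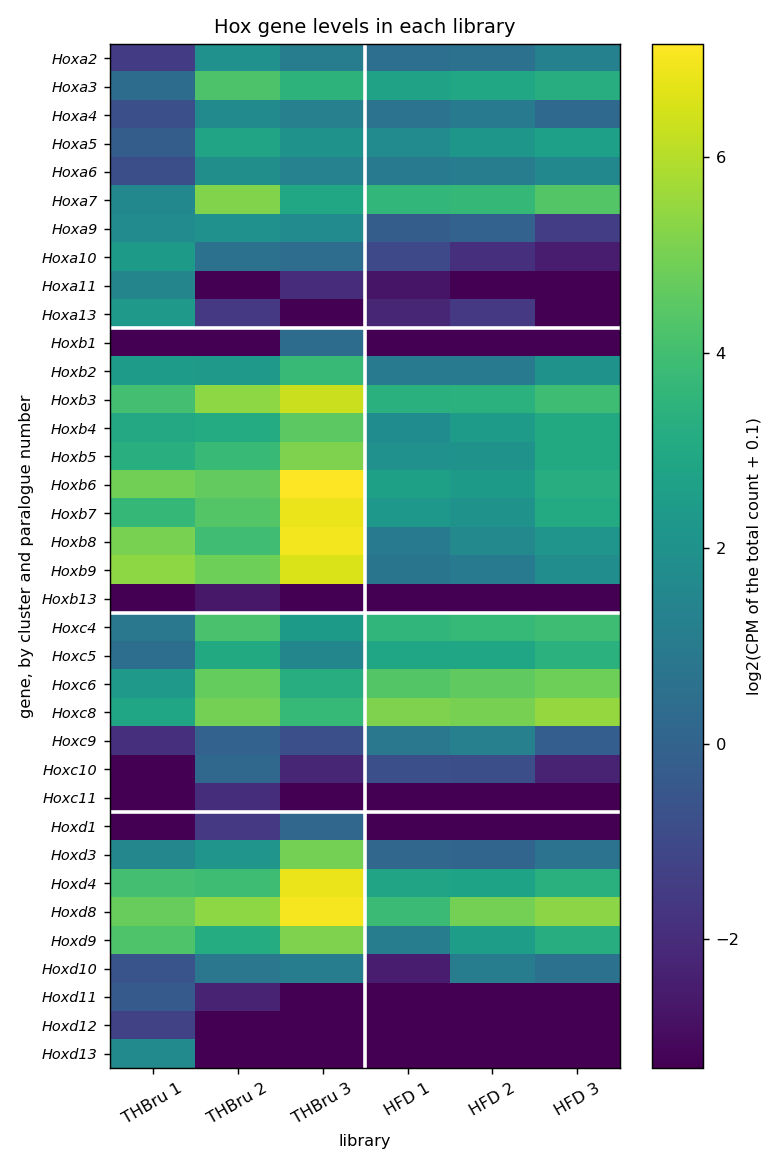
Level of 36 Hox genes, as log2(CPM of the total count + 0.1), in rows by cluster and paralogue number, with THBru 1 to 3 left of HFD 1 to 3. HoxB genes 2 to 9 are brighter in the THBru columns and brightest in THBru 3, HoxC genes 4 to 8 are darker in THBru 1 and THBru 3, and Hoxd13 has a value above 0 in THBru 1 alone.

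HoxB was the largest cluster by counts in THBru and HoxC in HFD. HoxC genes took 5.7, 21.6 and 3.01% of all Hox counts in THBru 1 to 3 and 46.5, 40.8 and 37.5% in HFD 1 to 3. HoxB genes took 59.3, 40.0 and 62.6% in THBru and 20.3, 18.4 and 22.6% in HFD. These shares did not overlap between the groups, and a share within the Hox genes does not depend on how a library is scaled. A share can fall with no fall in RNA where other clusters are higher. In THBru 2 HoxC summed to 85.4 CPM, beside an HFD mean of 85.2 CPM. HoxD took 25.1 ± 6.57% in THBru and 20.6 ± 5.03% in HFD, and HoxA 10.8 ± 8.65% in THBru and 17.3 ± 0.913% in HFD (SD, n = 3 each), with overlap in both cases. By paralogue number, genes 9 to 13 took 30.8, 12.0 and 13.6% in THBru and 4.42, 6.93 and 5.65% in HFD, with no overlap. Genes 4 to 8 took 59.2, 68.7 and 72.4% in THBru and 81.6, 80.8 and 81.6% in HFD. Genes 1 to 3 overlapped, at 10, 19.3 and 14% in THBru and 14, 12.2 and 12.8% in HFD. The spread of every one of these shares was wider among the THBru libraries than among the HFD libraries.

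**Figure D2:**
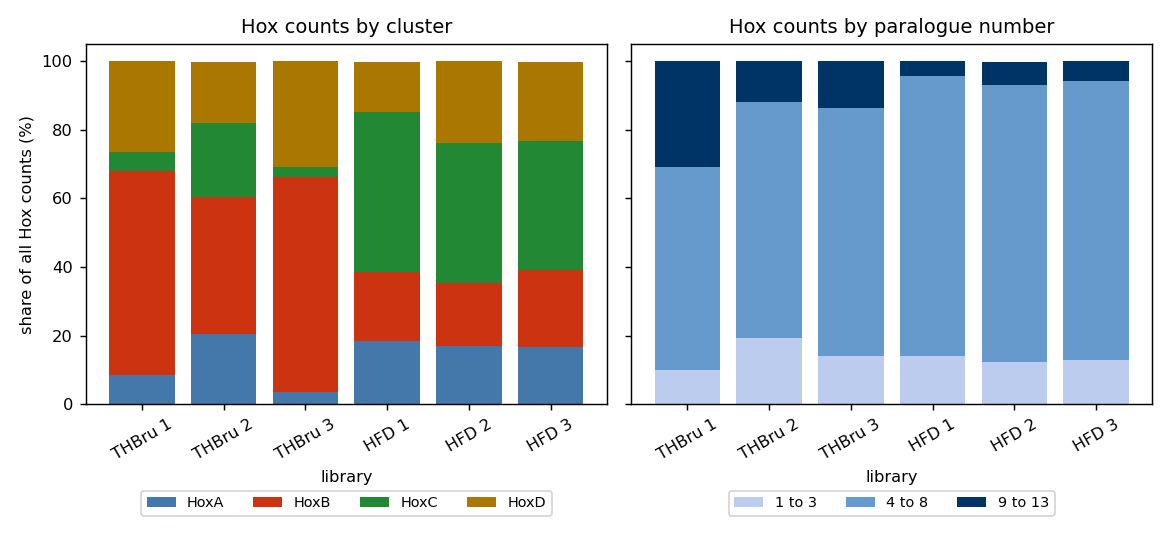
Stacked bars of the share of all Hox counts in each library (%), by cluster on the left and by paralogue number on the right, with THBru 1 to 3 before HFD 1 to 3. HoxB is the largest cluster share in each THBru library (40.0 to 62.6%) and HoxC in each HFD library (37.5 to 46.5%), and genes 9 to 13 reach 12.0 to 30.8% in THBru against 4.42 to 6.93% in HFD.

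Levels of different genes were compared per length, as FPKM (fragments per kilobase of transcript per 1e6 fragments). In HFD the highest were Hoxc8 (12.8 ± 2.34 FPKM), Hoxd8 (10 ± 4.65), Hoxc6 (9.83 ± 1.77), Hoxa7 (5.08 ± 1.59), Hoxc4 (4.99 ± 0.621) and Hoxb7 (3.57 ± 1.46), with SD over n = 3. In the order of the 36 genes reported singly, Hoxc6 and Hoxa7 were the only neighbours whose HFD values did not overlap. All of these 6 genes have central numbers, 4 to 8. At the low end, 7 genes had no count in any HFD library: Hoxb1, Hoxb13, Hoxc11, Hoxd1, Hoxd11, Hoxd12 and Hoxd13.

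Across the whole table, edgeR's quasi-likelihood test was run on the 16140 genes that averaged 0.5 FPKM or more, with Benjamini-Hochberg adjusted p under 0.05 as the call. Of the 37 Hox genes, 24 passed this filter. None of the 24 was called in either direction, where 0.118% of all tested genes were called higher and 0.0% lower. At an unadjusted p under 0.05, 11 were higher, 8 of HoxB and 3 of HoxD, and 1, Hoxc8, was lower, beside 13.9% and 8.93% of all tested genes. DESeq2 called 10 higher (Hoxb2, Hoxb3, Hoxb5 to Hoxb9, Hoxd3, Hoxd4 and Hoxd9) beside 10.3% of all tested genes, and 0 lower beside 6.83%. Fold changes were positive for 16 of 24, beside 54.4% of all tested genes, with a median log2 fold change of 0.80 for the Hox genes and 0.08 for all tested genes. By cluster the medians were 2.56 for HoxB, 2.15 for HoxD, -0.04 for HoxA and -0.95 for HoxC. Under total-count scaling the median of all genes moved to -0.05, and of the 24 Hox genes Hoxa7 alone changed sign.

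**Figure D3:**
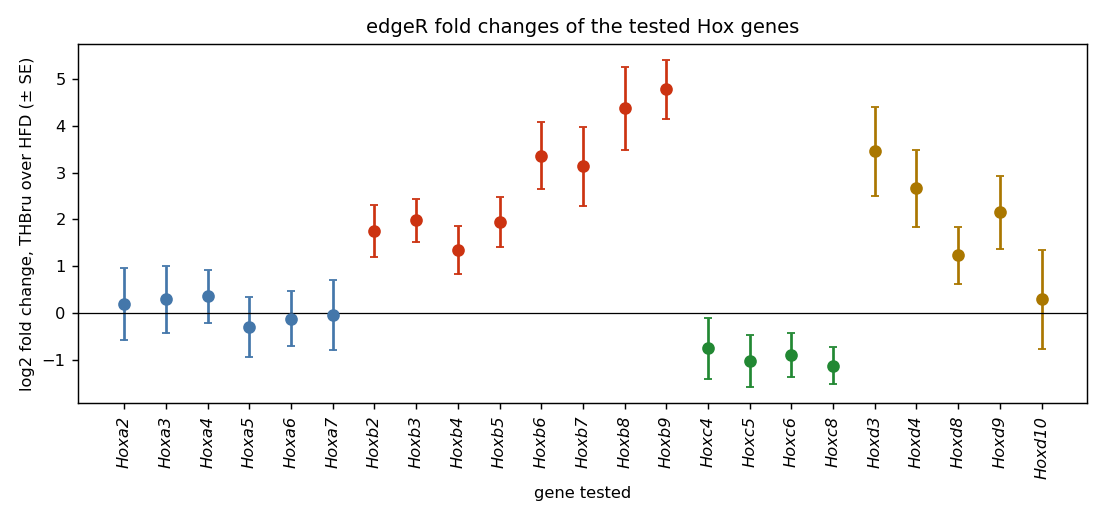
edgeR log2 fold change, THBru over HFD, with its SE as bars, for 23 tested Hox genes in cluster order. The 8 HoxB genes and 5 HoxD genes lie above 0 (up to 4.77 for Hoxb9), the 4 HoxC genes below 0 (to -1.11 for Hoxc8), and the HoxA genes within -0.29 to 0.36.

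HoxB lies on chromosome 11, at chr11:96194316-96368256 on the + strand (174 kb, GRCm38), with Hoxb13 at its start and Hoxb1 at its end. Its 10 genes summed to 155.8, 158.0 and 632.9 CPM in THBru 1 to 3 and to 33.2, 35.8 and 60.4 CPM in HFD 1 to 3. Set against the HFD mean, these THBru sums were 3.61-, 3.66- and 14.7-fold. The 8 tested genes, Hoxb2 to Hoxb9, all had positive fold changes, with edgeR adjusted p from 0.0873 to 0.206. The groups did not overlap in CPM scaled by TMM (trimmed mean of M values) for 7 of the 8, all but Hoxb4. Over the 24 tested Hox genes, 9 were higher without overlap and 1 was lower, beside 16.7% and 15.1% of all tested genes. In CPM of the total count the numbers were again 9 and 1, beside 10.4% and 12.6%.

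Hoxb9, which patterns the thoracic skeleton, stood out in each THBru library. Hoxb9 (chr11:96271457-96276595, + strand) had 41.0, 29.0 and 95.2 CPM in THBru 1 to 3 and 1.57, 1.85 and 3.38 CPM in HFD 1 to 3. The lowest THBru library was several times above the highest HFD library. The means were 55.1 ± 35.3 CPM in THBru and 2.27 ± 0.973 CPM in HFD (SD, n = 3 each), with a log2 fold change of 4.77 (SE 0.62) and an edgeR adjusted p of 0.0873, so the gene missed the threshold although it was higher in 3 of 3 THBru libraries. limma on log2(FPKM + 0.5) called it (log2 difference 3.83, adjusted p = 0.0174), and over all settings run its adjusted p ranged from 9.41e-14 with DESeq2 to 0.433 in edgeR without HFD 1. limma called no other Hox gene in either direction, beside 0.446% of all tested genes higher and 0.0062% lower.

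Hoxb8, which acts in trunk patterning and in blood progenitors, had 32.7, 15.5 and 126.6 CPM in THBru 1 to 3 and 1.87, 2.94 and 4.31 CPM in HFD 1 to 3 (log2 fold change 4.37, SE 0.88; edgeR adjusted p = 0.136). Hoxb6 had 30.1, 25.1 and 142.9 CPM in THBru and 6.16, 5.2 and 9.04 CPM in HFD (3.36, SE 0.72; adjusted p = 0.147). Hoxb7 had 12.7, 20.4 and 115.7 CPM in THBru and 4.65, 4.1 and 8.35 CPM in HFD (3.13, SE 0.84; adjusted p = 0.171). In all of these THBru 3 was the highest library and no THBru library lay in the HFD range. The more anterior genes showed smaller fold changes: 1.98 (SE 0.45) for Hoxb3, 1.95 (0.53) for Hoxb5, 1.76 (0.55) for Hoxb2 and 1.35 (0.52) for Hoxb4, on the log2 scale. Hoxb3, a gene of the pharyngeal region, had 16.1, 41.2 and 80.3 CPM in THBru 1 to 3 and 10.1, 10.3 and 15.0 CPM in HFD 1 to 3. Hoxb5 had 9.81, 13.1 and 35.1 CPM in THBru and 3.83, 3.95 and 8.23 CPM in HFD. Hoxb2, a hindbrain gene, had 5.42, 4.84 and 13.1 CPM in THBru and 1.82, 1.92 and 3.92 CPM in HFD. For Hoxb2, Hoxb3 and Hoxb5 the lowest THBru value lay above the highest HFD value. Hoxb4, known from blood stem cells, overlapped in TMM-scaled CPM, with THBru 2 at 7.34 and HFD 3 at 7.49.

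The ends of the HoxB cluster behaved differently from its middle. Hoxb1, a hindbrain gene, had 82 counts (1.22 CPM, exact Poisson 95% interval 0.971 to 1.51) in THBru 3 and 0 in each other library. The HFD level was taken as 3 counts over the 3 HFD libraries together (0.0136 CPM). The point value of THBru 3 was at least 89.6-fold above it, a bound that leaves out the counting error of THBru 3. Hoxb13, a gene of the prostate and tail bud, had 4 counts in THBru 2 and 0 in the other 5 libraries. Neither was tested.

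**Figure D4:**
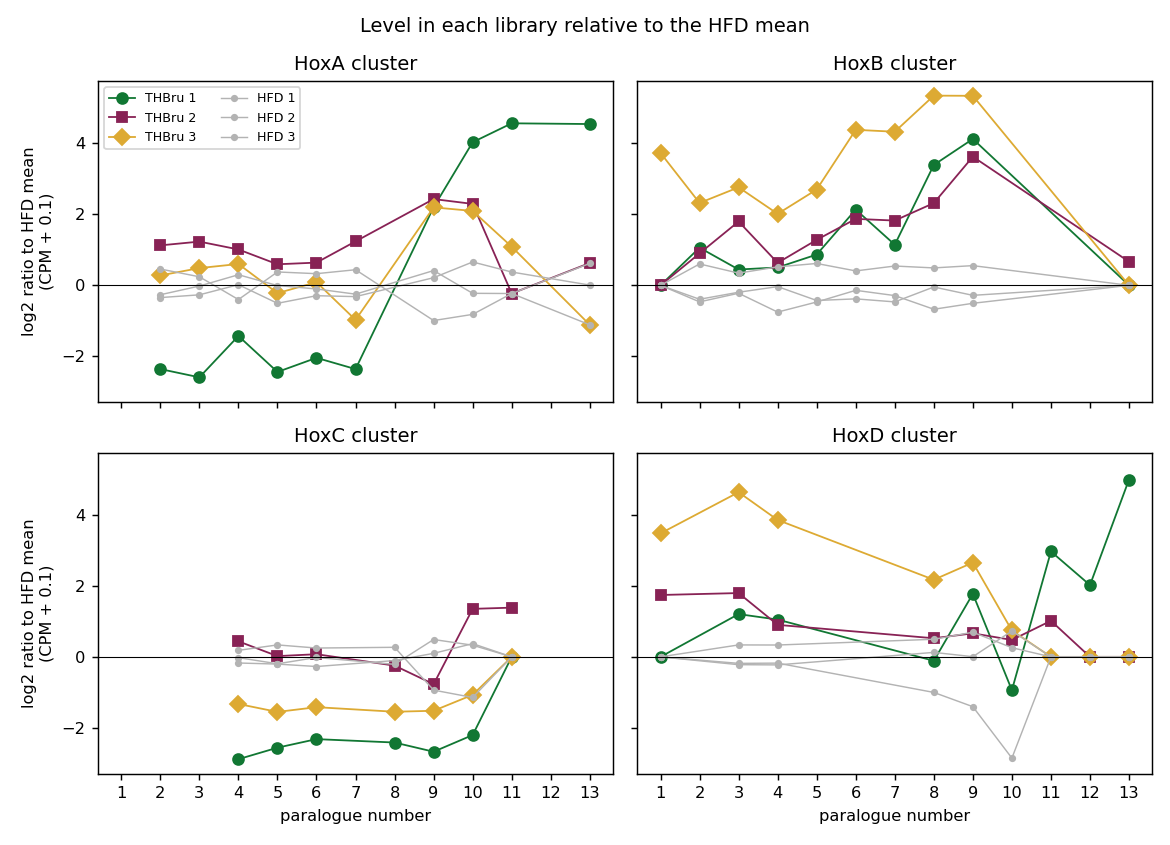
log2 ratio of each library's level to the HFD mean (CPM of the total count + 0.1 in each) against paralogue number, in a panel per cluster, with coloured markers for THBru 1 to 3 and grey for HFD 1 to 3. THBru 1 lies below 0 over HoxA 2 to 7 and above 0 over HoxA 9 to 13, THBru 3 is the highest line over HoxB 1 to 9, THBru 1 and THBru 3 lie below 0 over HoxC 4 to 9, and THBru 1 alone is above 0 at Hoxd12 and Hoxd13.

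HoxD (chr2:74668310-74765142, + strand, 96.8 kb) summed to 69.3, 70.8 and 312.3 CPM in THBru 1 to 3 and to 24.3, 46.3 and 62.0 CPM in HFD 1 to 3. The 5 tested genes had positive fold changes, and Hoxd3 and Hoxd4 were the only ones that did not overlap between the groups. Hoxd3, which shapes the first neck vertebrae, had 2.8, 4.27 and 31.1 CPM in THBru and 1.01, 0.982 and 1.49 CPM in HFD (log2 fold change 3.45, SE 0.94; edgeR adjusted p = 0.172). Hoxd4, also a neck vertebra gene, had 16.3, 14.7 and 114.2 CPM in THBru and 6.92, 6.68 and 9.89 CPM in HFD (2.67, SE 0.82; adjusted p = 0.182). THBru 3 carried most of the difference in both. Hoxd9 had 19.2, 8.84 and 35.4 CPM in THBru and 2.04, 5.57 and 9.03 CPM in HFD (2.15, SE 0.77; adjusted p = 0.197), with THBru 2 just inside the HFD range. Hoxd8, among the highest Hox genes in HFD, had 26.4, 41.0 and 128.5 CPM in THBru and 14.2, 31.1 and 40.2 CPM in HFD (1.24, SE 0.61; adjusted p = 0.269). Hoxd10, a gene of lumbar motor neurons, had 41, 115 and 137 counts in THBru and 6, 140 and 106 in HFD (0.30, SE 1.05; adjusted p = 0.88), and HFD 1 set its lowest value.

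The outer HoxD genes appeared in different THBru libraries. Hoxd13, a gene of the digits and the lower urogenital tract, had 221 counts in THBru 1 (3.07 CPM, interval 2.67 to 3.5) and 0 in the other 5 libraries. The point value of THBru 1 was thus at least 225.1-fold above the HFD level, with its own counting error left out. Hoxd12 had 22 counts in THBru 1 alone, and Hoxd11, a limb and kidney gene, 49 in THBru 1 and 7 in THBru 2, both with 0 in HFD. At the other end, Hoxd1 had 0, 16 and 68 counts in THBru 1 to 3 and 0 in HFD. The high posterior end was thus in THBru 1 and the high anterior end in THBru 3, each a single library whose other-tissue markers are given above.

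HoxC (chr15:102954427-103036852, + strand, 82.4 kb) was the cluster with lower values. It summed to 15.0, 85.4 and 30.4 CPM in THBru 1 to 3 and to 76.0, 79.4 and 100.2 CPM in HFD 1 to 3. THBru 2 was inside the HFD range, and THBru 1 and THBru 3 were far below it. Hoxc8, known in mice as a repressor of the brown fat programme, had 6.98, 31.6 and 12.8 CPM in THBru and 34.9, 32.4 and 45.2 CPM in HFD, without overlap (log2 fold change -1.11, SE 0.40; edgeR adjusted p = 0.199; lower in 3 of 3 THBru libraries). In TMM-scaled CPM it had 11, 26.5 and 11.5 in THBru and 32.3, 31.8 and 41.9 in HFD, and THBru 2 was again nearest to HFD. Hoxc6 had 4.83, 25.7 and 9.09 CPM in THBru and 20.2, 24.1 and 29.0 CPM in HFD (-0.89, SE 0.47; adjusted p = 0.292). Hoxc5 had 1.29, 8.18 and 2.69 CPM in THBru and 6.99, 7.03 and 10.2 CPM in HFD (-1.01, SE 0.55; adjusted p = 0.306). THBru 2 lay within the HFD range for Hoxc6 and Hoxc5, while for Hoxc4 it lay above. Hoxc4 had 1.71, 17.9 and 5.21 CPM in THBru and 11.7, 13 and 15 CPM in HFD (-0.74, SE 0.65; adjusted p = 0.499). Of the untested members, Hoxc9 had 12, 61 and 33 counts in THBru 1 to 3 and 132, 157 and 58 in HFD 1 to 3. Hoxc10, a marker of subcutaneous fat, had 0, 73 and 8 counts in THBru and 38, 33 and 8 in HFD. Hoxc11 had 11 counts in THBru 2 alone.

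HoxC and the adipocyte markers were both low in THBru 1 and THBru 3, and the part of one in the other was not tested. Per 1000 counts of the 14-gene mature adipocyte list, HoxC had 2.11, 2.41 and 7.83 counts in THBru 1 to 3 and 2.46, 1.86 and 2.07 in HFD 1 to 3. On that scale THBru 1 and THBru 2 were close to the HFD libraries and THBru 3 was above them. Per 1000 counts of the progenitor and fibroblast list HoxC had 15.7, 35.1 and 27.6 in THBru and 12.7, 24.9 and 44.6 in HFD. All 3 THBru libraries lay within the HFD range there. The 12 genes of that list did not move together, with 3 positive and 9 negative edgeR fold changes. Dpp4, a positive one, had 206.5, 63.9 and 145.8 CPM in THBru and 44.6, 44.2 and 24.5 CPM in HFD. Col3a1, a negative one, had 223.9, 358.3 and 206.2 CPM in THBru and 2872.6, 1026.6 and 526.5 CPM in HFD. Ratios to this list thus rest on a mixed divisor. HoxB per 1000 counts of the adipocyte list had 22, 4.45 and 163 in THBru and 1.08, 0.837 and 1.25 in HFD, above HFD in all 3 THBru libraries. Per 1000 counts of the progenitor and fibroblast list HoxB had 163.6, 64.9 and 575.3 in THBru and 5.54, 11.2 and 26.8 in HFD, again higher in all 3. Per 1000 counts of the epithelial list HoxB had 123.8, 333.5 and 311.7 in THBru and 1436.6, 337.4 and 7794.1 in HFD. Every THBru library was below every HFD library there, though THBru 2 and HFD 2 were close. HoxC was also lower on that scale, at 11.9, 180.4 and 15.0 in THBru and 3284.5, 749.0 and 12940.7 in HFD. The epithelial list summed to only 7.74 to 106.0 CPM in HFD, and so small a divisor makes any HFD ratio high.

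HoxA, on the - strand of chromosome 6, split by position and by library. Its genes 2 to 7 summed to 6.06, 71.6 and 29.3 CPM in THBru 1 to 3 and to 26.4, 30.2 and 42.1 CPM in HFD 1 to 3, so THBru 1 was below, THBru 2 above and THBru 3 within the HFD range. The 7 tested genes had fold changes from -0.29 to 0.36 and edgeR adjusted p from 0.706 to 0.976. Hoxa7, the highest HoxA gene per length in HFD, had 2.87, 35.7 and 7.65 CPM in THBru and 12.1, 12.7 and 20.5 CPM in HFD (-0.04, SE 0.75), with libraries on both sides of HFD. Hoxa3, which acts in the thymus and parathyroid, had 1.22, 18.5 and 11 CPM in THBru and 6.49, 7.72 and 9.27 CPM in HFD. Hoxa2, Hoxa4 and Hoxa6 had 0.25 to 0.485 CPM in THBru 1, 3.06 to 3.8 in THBru 2, 2.07 to 2.4 in THBru 3 and 1.09 to 2.85 in the HFD libraries. THBru 1 was thus the lowest and THBru 2 the highest library for each of them. Hoxa5, a gene of lung and thoracic development that is also expressed in fat, had 0.763, 6.94 and 3.91 CPM in THBru and 3.19, 4.55 and 5.96 CPM in HFD.

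The 4 posterior HoxA genes were below the test's filter, and all 4 were higher in THBru 1 than in any HFD library. Hoxa9, a regulator of blood progenitors, had 236, 263 and 219 counts in THBru 1 to 3 (3.27, 3.85 and 3.26 CPM) and 58, 61 and 20 in HFD 1 to 3 (0.753, 0.88 and 0.27 CPM). The groups did not overlap, and in the edgeR fit with no filter on level its log2 fold change was 2.59 (SE 0.62; adjusted p = 0.208). Hoxa10, needed in the uterus and vas deferens, had 5.09, 1.46 and 1.26 CPM in THBru and 0.403, 0.173 and 0.0811 CPM in HFD (4.01, SE 1.1; adjusted p = 0.232 in the same fit). Hoxa11, a gene of the forearm, kidney and reproductive tract, had 192, 0 and 10 counts in THBru and 4, 0 and 0 in HFD. Hoxa13, a gene of the digits and the lower urogenital tract, had 354, 16 and 0 counts in THBru and 9, 16 and 0 in HFD, and was high in THBru 1 alone (4.91 CPM, interval 4.41 to 5.45).

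Counted library by library, the genes above 1 CPM and over 8-fold above the highest HFD library were few and mostly different. In THBru 1 they were Hoxa10, Hoxa11, Hoxa13, Hoxb9 and Hoxd13, 5 of 37 beside 1.66% of all genes. In THBru 2 there was 1, Hoxb9, beside 2.94%. In THBru 3 there were 8 (Hoxb1, Hoxb6 to Hoxb9, Hoxd1, Hoxd3 and Hoxd4) beside 5.42%. Hoxb9 was the single gene in all 3 sets. When each THBru library was fitted alone against the 3 HFD libraries, with the lone library assumed to vary like the HFD ones, edgeR called Hoxb9 higher in each (adjusted p = 0.00884, 0.0489 and 0.00539 for THBru 1 to 3, within the range given above). THBru 1 alone gave 5 Hox genes higher and 4 lower, beside 9.42% and 5.79% of all tested genes. THBru 2 alone gave 1 and 0, beside 2.17% and 0.0372%, and THBru 3 alone 9 and 3, beside 15.3% and 13.2%. In these fits Hoxc4, Hoxc6 and Hoxc8 had log2 fold changes of -2.21, -1.59 and -1.68 for THBru 1 alone. For THBru 3 alone they were -1.43, -1.51 and -1.63, and for THBru 2 alone 0.28, -0.08 and -0.39. The share of Hox genes lower in THBru 3 alone was near that of all tested genes. Without THBru 2, edgeR called Hoxb6, Hoxb8, Hoxb9 and Hoxd4 higher and Hoxc4, Hoxc5, Hoxc6 and Hoxc8 lower, beside 5.06% and 4.55%. Leaving out any other library gave no Hox call.

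Of 10 paralogue pairs, 4 stood in the opposite order in every library of the 2 groups: Hoxd8 to Hoxc8, Hoxb6 to Hoxc6, Hoxb7 to Hoxa7 and Hoxb5 to Hoxc5. Some of these orders were near ties. The FPKM ratio of Hoxd8 to Hoxc8 was 0.989 in HFD 2 and 0.918 in HFD 3, and that of Hoxb7 to Hoxa7 was 1.06 in THBru 2. In 2 pairs, Hoxb3 to Hoxa3 and Hoxb9 to Hoxa9, the HoxB gene was the higher in all 6 libraries, and in 3 (Hoxb8 to Hoxc8, Hoxb4 to Hoxc4 and Hoxd4 to Hoxc4) THBru 2 had the same order as HFD. The FPKM ratio of Hoxb8 to Hoxc8 was 5.05, 0.525 and 10.6 in THBru 1 to 3 and 0.0574, 0.0974 and 0.102 in HFD 1 to 3. For Hoxb6 to Hoxc6 it was 7.67, 1.2 and 19.3 in THBru and 0.373, 0.263 and 0.382 in HFD. The HoxC gene was thus the higher of the pair in all HFD libraries, and the HoxB gene in all THBru libraries for number 6 and in 2 of 3 for number 8. For Hoxb9 to Hoxc9 the ratio was 234.4, 31.6 and 190.4 in THBru and 0.863, 0.773 and 4.12 in HFD. The ratios of 8 pairs did not overlap between the groups, and Hoxb4 to Hoxc4 and Hoxb9 to Hoxa9 did. The pairs were chosen with the levels known, so their number describes these libraries and is no test.

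Other genes within the cluster spans were counted too. Of 40 such genes in the table, 16 were tested and 1, Gm53, was called, as 1 of the 19 genes called higher in the whole table. It was singled out after its values were seen. Gm53 is annotated as a lincRNA (chr11:96251105-96264868, + strand) between Hoxb13, which ends 53658 bases before it, and the miR-196a-1 gene, which starts 296 bases after it. The end of that miRNA gene is 6192 bases from the start of Hoxb9. Gm53 had 36.8, 22.8 and 33.3 CPM in THBru 1 to 3 and 0.312, 0.202 and 0.216 CPM in HFD 1 to 3. All THBru values were far above all HFD values, with means of 31.0 ± 7.3 CPM in THBru and 0.243 ± 0.0596 CPM in HFD (SD, n = 3 each), a log2 fold change of 7.27 (SE 0.59) and an edgeR adjusted p of 0.0363, higher in 3 of 3 THBru libraries. Among the fits that left out 1 library, the call was lost without HFD 1 (adjusted p = 0.292), without HFD 2 (0.226) and without HFD 3 (0.286), where the fold change stayed between 7.18 and 7.47. Over all settings the adjusted p ranged from 1.31e-35 (DESeq2) to 0.292.

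**Figure D5:**
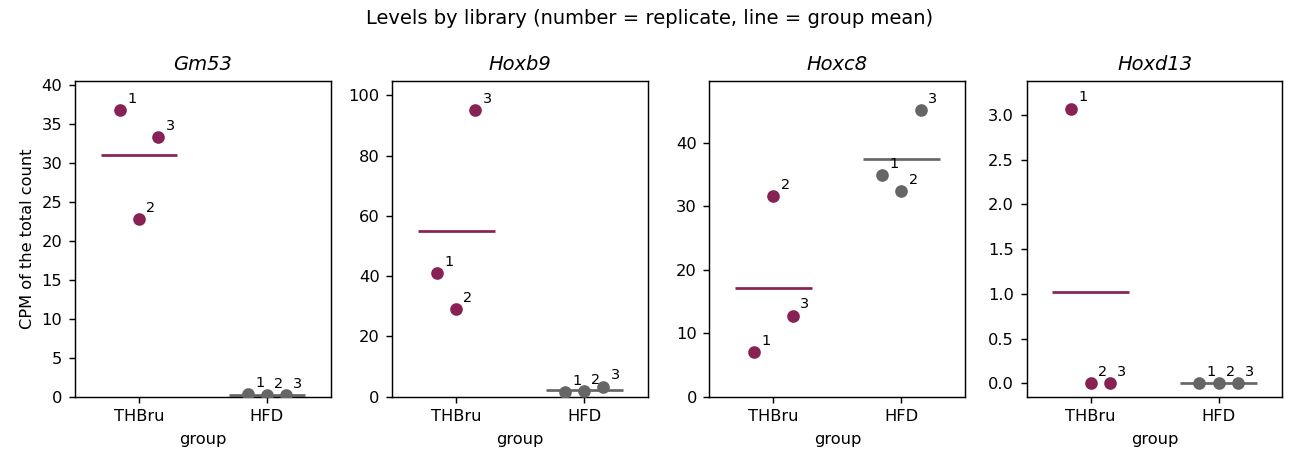
CPM of the total count by library for Gm53, Hoxb9, Hoxc8 and Hoxd13, with THBru left of HFD, the replicate number beside each point and a line at each group mean. Gm53 and Hoxb9 are higher in all 3 THBru libraries, Hoxc8 is lowest in THBru 1 and THBru 3, and Hoxd13 has its only count in THBru 1.

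Next to Gm53, the miR-196a-1 hairpin row had 92, 44 and 66 counts in THBru 1 to 3 and 1, 0 and 0 in HFD 1 to 3 (edgeR adjusted p = 0.0999). These are fragments of poly(A) RNA over the hairpin, and the mature miRNA was not measured. Its target Hoxb8, with the site printed above, was also higher in the same libraries. The miR-10a row had 5, 15 and 35 counts in THBru and 2, 3 and 4 in HFD, and the miR-10b row 4, 6 and 34 in THBru and 3, 0 and 2 in HFD, and neither was called. The miR-196b row inside Hoxa9 had 1 count in each THBru library and 0 in each HFD library.

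The antisense RNAs of the clusters did not all behave alike. In HoxA, Hoxaas2 had 32, 215 and 128 counts in THBru 1 to 3 and 77, 137 and 115 in HFD 1 to 3. Hoxaas3 had 19, 138 and 157 in THBru and 42, 67 and 70 in HFD, and Hotairm1 23, 223 and 208 in THBru and 109, 132 and 133 in HFD. In each of these the groups overlapped and THBru 1 was lowest. Hoxb5os, Hoxb3os and Hoxa11os had counts in all 3 THBru libraries and were higher there than in HFD. Hoxb5os, antisense to Hoxb5 and Hoxb6, had 97, 94 and 505 counts in THBru 1 to 3 and 16, 19 and 18 in HFD 1 to 3 (log2 fold change 3.86, SE 0.80; edgeR adjusted p = 0.139), highest in THBru 3 as those genes were. Hoxb3os had 208, 463 and 287 counts in THBru and 119, 112 and 142 in HFD (1.55, SE 0.35; adjusted p = 0.15), highest in THBru 2, whereas Hoxb2 and Hoxb3, which it overlaps, were highest in THBru 3. Hoxa11os had 514, 18 and 21 counts in THBru and 0 in HFD, again highest in THBru 1. Of the 37 Hox genes, 11 overlap another Hox gene on the same strand (in HoxA around Hoxa3, in HoxC around Hoxc5, and Hoxd3 with Hoxd4), 14 overlap a gene on the opposite strand, and 14 overlap no other gene of the table on either strand. Hoxd3 also overlaps Gm28230, which is not a Hox gene by symbol, on the same strand over 21191 bases. Gm28230 had 20.1, 26.1 and 84.0 CPM in THBru 1 to 3 and 5.86, 12.9 and 14.9 CPM in HFD 1 to 3 (2.02, SE 0.60; edgeR adjusted p = 0.179). The strand setting of the counting is not given in the sources used here, so how fragments were divided between overlapping genes, Hoxd3 and Gm28230 among them, is uncertain. Hoxb7, Hoxb8 and Hoxb9 overlap no other Hox gene.

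Protein-coding genes flanking the clusters were taken as the nearest 2 of the table on each side of each, at any distance, 16 in all. The 13 tested had log2 fold changes from -0.86 to 7.58, 9 positive and 4 negative (median 0.21). Those by HoxA had -0.86 to -0.44, by HoxB -0.01 to 7.58, by HoxC 0.04 to 0.41 and by HoxD 0.03 to 2.11. Evx2, a homeobox gene next to Hoxd13, had 42 counts in THBru 1 and 0 elsewhere. Evx1, next to Hoxa13, had 24, 0 and 282 counts in THBru 1 to 3 and 0, 10 and 0 in HFD 1 to 3, and so was highest in THBru 3, where Hoxa13 had no count. Skap1, downstream of HoxB, had 22.2, 2.0 and 31.2 CPM in THBru and 1.04, 0.447 and 0.77 CPM in HFD (4.93, SE 1.16; edgeR adjusted p = 0.159). Ttll6, on the other side of HoxB, had 0, 697 and 207 counts in THBru and 0, 4 and 0 in HFD (7.58, SE 2.61; adjusted p = 0.192), without counts in THBru 1. Hnrnpa3 was the farther of the 2 genes beyond Hoxd1, at chr2:75659261-75669407, and no close neighbour of HoxD. It had 12.3, 12.9 and 158.5 CPM in THBru and 13.2, 17.4 and 11.5 CPM in HFD (2.11, SE 1.01; adjusted p = 0.26), and THBru 3 alone stood above HFD. Skap2 by HoxA was at -0.53 (SE 0.31; adjusted p = 0.325).

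Partners and regulators of Hox proteins showed no call. Hox proteins bind DNA with PBC and MEIS class cofactors. Of 9 cofactor genes 7 were tested, 2 with positive and 5 with negative fold changes (median -0.08), led by Pbx3 at 13.9, 11.4 and 19.2 CPM in THBru and 11.7, 10.5 and 10.3 CPM in HFD (0.67, SE 0.34; edgeR adjusted p = 0.279). Trithorax and polycomb genes, which keep Hox genes on or off, were all tested (23 of 23), with 18 positive and 5 negative (median 0.34). Pcgf2, a polycomb subunit, had 16.9, 21.6 and 34.4 CPM in THBru 1 to 3 and 7.64, 8.8 and 10.1 CPM in HFD 1 to 3, without overlap (1.59, SE 0.28; adjusted p = 0.112). Retinoic acid induces anterior Hox genes in the embryo. Of 18 genes of its pathway 14 were tested, 5 positive and 9 negative (median -0.33), with Dhrs3, a retinal reductase, at -1.59 (SE 0.61) and the receptor gene Rxra at -0.86 (SE 0.33), both with edgeR adjusted p = 0.206. Crabp1, a gene for a retinoic acid binding protein, had 0, 368 and 51 counts in THBru and 0 in all HFD libraries (adjusted p = 0.207). Of 14 fat depot patterning genes 8 were tested, 1 positive and 7 negative (median -1.07), with Gata6, a gene linked to visceral fat, at 2.32, 13.3 and 2.86 CPM in THBru and 12.8, 26.1 and 11.4 CPM in HFD. Of 8 ParaHox and flanking homeobox genes, 3 matched the table and none was tested.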

How the data were processed

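Poly(A) RNA of 6 white adipose tissue samples was sequenced as stranded paired reads, per the labels' protocols. The deposited table gives whole-number counts per gene, not normalized, and FPKM values, both named so per the file headers. The submitters' processing notes list HISAT2 2.2.1, cutadapt 1.9, StringTie 2.1.6, edgeR and DESeq2 with no roles. Which program counted, on which strand and on which build is not given in the sources used here. Coordinates were read as GRCm38. The table's 32819 rows were summed by symbol into 32759 genes. CPM divides by a library's total count, and TMM-scaled CPM also by the TMM factor.

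THBru was compared with HFD by two-sided edgeR 4.0.16 quasi-likelihood tests (robust, TMM) in R 4.3.3, checked on simulated data. The simulated levels and spread came from the HFD libraries alone, so the check does not cover the wider spread among the THBru libraries. Alternatives were DESeq2 1.42.0, limma 3.58.1 on log2(FPKM + 0.5) or log2(FPKM + 0.1), other filters and scalings, left-out libraries and single THBru libraries. Of the 37 Hox genes, 1 enters the counts, sums and medians over members but is not reported here by itself. The Hox genes, lists and pairs were chosen with earlier results of these data known.

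Values per library are given for the 6 highest Hox genes in HFD, those over 8-fold above the highest HFD library, the 3 smallest p in each direction, paralogue group 13, and genes without an HFD count, with further members added for their place in a cluster. From each other list at most the 4 smallest p were named.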

Additional observations from a re-analysis of the deposited data

How the results depend on the processing

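Against no Hox gene called higher and none lower, DESeq2 called 10 and 0, limma 1 and 0 with either pseudocount, THBru 2 alone 1 and 0, THBru 1 alone 5 and 4, THBru 3 alone 9 and 3, and leaving out 1 library 0 to 4 in each direction. The fits with THBru 1 alone and THBru 3 alone were added after the data were seen. Over all genes, 19 were called higher and 0 lower. The numbers higher were 30 at a mean FPKM of at least 1, 53 with total counts, 1670 with DESeq2, 72 and 117 with limma (pseudocounts 0.5 and 0.1), 0 with the replicate block, 0 to 817 with 1 library left out, and 1521, 350 and 2465 for THBru 1, 2 and 3 alone. The numbers lower were 1103 with DESeq2, 1 and 1 with limma, 0 to 735 with 1 library left out, and 935, 6 and 2136 for THBru 1, 2 and 3 alone. The median log2 fold change of the Hox genes (0.80) was 1.92 with no filter (1.88 with genes at 0 in HFD set to their lower bound), 1.52 at a mean FPKM of at least 0.1, 0.16 and 1.32 for THBru 1 and THBru 3 alone, and 0.39 to 1.15 with 1 library left out. By FPKM in place of counts, genes 1 to 3 took 9.09% in THBru and 8.65% in HFD, genes 4 to 8 took 85.0% in HFD, and HoxA 18.3% in HFD. The cause of these shifts was not tested, beyond the genes a filter adds and the libraries a setting leaves out.

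HoxA genes and Hoxd10 changed sign. Hoxa2 was -0.02 and -0.22 with limma (pseudocounts 0.5 and 0.1), -0.19 with the replicate block, -2.0 for THBru 1 alone and -0.49 to 0.64 with 1 library left out. Hoxa3 was -0.18 with limma (0.1), -0.10 with the block, -1.93 for THBru 1 alone and -0.32 to 0.76. Hoxa4 was -0.86 for THBru 1 alone. Hoxa5 was 0.45 for THBru 2 alone and -0.87 to 0.09. Hoxa6 was 0.51 and 0.01 for THBru 2 and THBru 3 alone and -0.55 to 0.25. Hoxa7 was 0.03 with total counts, 1.09 for THBru 2 alone and -1.32 to 0.34. Hoxd10 was -0.32 for THBru 1 alone and -0.26 to 0.97. Hoxc4 was 0.28 for THBru 2 alone. No HoxB gene changed sign under any setting run. The labels do not say that the replicate numbers pair samples, and same-numbered libraries did not deviate together (correlations 0.0101, -0.00617 and -0.0473). These correlations cannot exclude a pairing, because the THBru libraries differed among themselves by markers of other organs. With the replicate block no gene was called, and Gm53 was 7.16 (adjusted p = 0.13; 1.31e-35 to 0.292 over all settings).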
